A study of Mus musculus with 6 samples.

Results

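Primitive erythroid cells are the first blood cells of the mouse embryo, and the genes described here are 10 regulators and globins of that lineage: Gata1, Klf1, Nfe2, Gfi1b, Epor, Myb, Kit, Hba-x, Hbb-bh1 and Hbb-y. They were taken by symbol from a deposited table of 24975 genes, where all 10 were found, and all 10 also passed the filter on low counts that left 11913 genes for testing. RNA was sequenced from mesoderm of mouse embryos at embryonic day 7.5, in 3 control and 3 Gli3R libraries of 1000 sorted cells each. Control embryos were Mesp1-Cre/+;R26-tdTomato/+ and Gli3R embryos were Mesp1-Cre/+;R26-Gli3R-IRES-Venus/+, so both groups carried the Cre driven by Mesp1, a gene of nascent mesoderm. Gli3R is a repressor form of Gli3 that blocks transcription downstream of Hedgehog, and the study asked which mesodermal genes depend on that pathway. Each library pooled littermates, and each of 3 litters gave 1 library of either genotype. Notes in the table say that controls were sorted on tdTomato and mutants on Venus, so an effect of Gli3R cannot be told apart from one of the reporter or its gate.

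Primitive red cells arise from extraembryonic mesoderm in the blood islands of the yolk sac, through a progenitor shared with endothelium. Gata1 and Klf1 encode the zinc-finger factors that switch on globin, haem and membrane genes, Nfe2 and Gfi1b act beside them, and Epor carries the erythropoietin signal for survival and growth. Myb and Kit are better known from definitive progenitors, the later wave of blood formation. The embryonic haemoglobins pair the alpha-like zeta chain of Hba-x with the beta-like chains of Hbb-bh1 and Hbb-y.

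Promoters are shown for 5 of the genes, 4 of which shared a litter pattern described further on (Gata1, Klf1, Gfi1b and Epor) and 1 of which, Hba-x, is a globin that did not. Each is the 250 bases before the RefSeq gene start on GRCm38.p6, 5′ to 3′ on the gene's strand, and that build differs from the mm9 named for the counts. Capitals mark matches on either strand to the GATA motif, searched as AGATAA or TGATAA, and to the motif CCACCC, of the CACCC type bound by Klf1 and related factors.
Gata1, chrX:7967911-7968160 (-): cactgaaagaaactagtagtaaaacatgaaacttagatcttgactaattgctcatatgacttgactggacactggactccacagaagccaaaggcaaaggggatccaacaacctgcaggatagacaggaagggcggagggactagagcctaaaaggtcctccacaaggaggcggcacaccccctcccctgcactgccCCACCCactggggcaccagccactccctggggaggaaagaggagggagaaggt
Klf1, chr8:84901732-84901981 (+): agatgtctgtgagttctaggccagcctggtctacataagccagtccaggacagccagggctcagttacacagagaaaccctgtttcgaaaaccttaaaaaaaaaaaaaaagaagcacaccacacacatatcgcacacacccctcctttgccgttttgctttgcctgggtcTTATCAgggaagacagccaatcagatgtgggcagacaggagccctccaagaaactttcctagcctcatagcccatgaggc
Gfi1b, chr2:28621983-28622232 (-): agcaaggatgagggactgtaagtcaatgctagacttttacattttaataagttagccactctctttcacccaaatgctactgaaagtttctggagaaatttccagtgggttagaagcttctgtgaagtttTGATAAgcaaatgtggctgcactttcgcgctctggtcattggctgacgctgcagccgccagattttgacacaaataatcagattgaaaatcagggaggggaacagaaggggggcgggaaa
Epor, chr9:21963577-21963826 (-): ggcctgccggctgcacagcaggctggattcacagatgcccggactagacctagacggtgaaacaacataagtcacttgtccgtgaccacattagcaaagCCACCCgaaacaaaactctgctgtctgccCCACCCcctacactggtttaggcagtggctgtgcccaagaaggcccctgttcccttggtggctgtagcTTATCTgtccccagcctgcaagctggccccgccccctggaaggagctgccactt
Hba-x, chr11:32276350-32276599 (+): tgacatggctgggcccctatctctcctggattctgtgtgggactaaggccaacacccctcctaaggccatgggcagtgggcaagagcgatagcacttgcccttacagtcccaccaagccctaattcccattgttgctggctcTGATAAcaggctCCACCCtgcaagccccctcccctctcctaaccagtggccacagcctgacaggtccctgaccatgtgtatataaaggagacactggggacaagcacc
The promoter table held 8 of the 10 genes. A GATA match stood in 5 of the 8 (Klf1, Gfi1b, Epor, Hba-x and Hbb-y) against 16.6% of all 32851 promoters, and a CCACCC match in 6 of the 8 against 28.1%. The shorter CACCC was not searched, and its letters stand unmarked in the Klf1 and Gfi1b windows. Epor, Hba-x and Hbb-y held both, as did 3.45% of all promoters. The printed Gata1 window held no GATA match, which says only that these letters are not in it. A match is not evidence of binding.

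Library totals ran from 5481190 counts in control replicate 1 to 12635151 in Gli3R replicate 1, so 1 count stood for 0.0777 to 0.186 CPM (CPM are counts scaled to a common library size, here with edgeR's TMM factors). Control replicate 1, the shallowest library, stood apart on the first principal component, at -39.8 against -2.25 to 19.3 for the others. It also held the most epiblast marker RNA, a sum of 256 CPM against 131 to 162 CPM elsewhere. All 12 erythroid markers had counts, summing to 237 to 496 CPM in control and 257 to 923 CPM in Gli3R libraries. Most of these markers are members themselves, so the sum is not separate support for the erythroid label. Hbb-bh1 alone gave 146 to 341 CPM in control and 138 to 529 CPM in Gli3R libraries. Rhag, a marker that is not a member, had only 1 control and 4 Gli3R counts. Markers of macrophages and leukocytes summed to only 2.28 to 5.51 CPM over all libraries, with Ptprc and Cx3cr1 at 0. Less RNA per cell and fewer cells of a type cannot be told apart in such bulk libraries.

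Compared per length of transcript, the erythroid genes spanned a wide range of levels, with Hbb-bh1 far above the rest. In control libraries Hbb-bh1 stood at 410 ± 161 RPKM (CPM per kilobase of exon; SD, n = 3) and Hba-x at 24.6 ± 12.5 RPKM. Gata1 followed at 16.6 ± 6.69 and Gfi1b at 12.3 ± 2.58 RPKM. Klf1 (7.04 ± 3.09 RPKM), Epor (6.57 ± 2.57 RPKM) and Nfe2 (3.26 ± 2.22 RPKM) formed the next group, and Hbb-y (1.81 ± 0.93 RPKM), Kit (1.77 ± 0.45 RPKM) and Myb (0.98 ± 0.47 RPKM) the lowest. From Hba-x downward each gene overlapped the next within 1 SD, so these ranges alone do not resolve the order of neighbours. Compared within each control library, Gata1 was always above Gfi1b, Gfi1b above Klf1, Epor above Nfe2, Nfe2 above Hbb-y, and Kit above Myb. The order of Hba-x and Gata1, of Klf1 and Epor, and of Hbb-y and Kit differed between libraries. Gata1 and Gfi1b in their lowest control library, at 10.7 and 10.4 RPKM, were above Klf1 and Epor in their highest, at 10.1 and 9.48 RPKM. In Gli3R libraries the order of the means was the same at the top, with Hbb-bh1 at 444 ± 362 and Hba-x at 28.6 ± 25.6 RPKM. Gfi1b stood at 22.2 ± 8.63 and Gata1 at 15.5 ± 4.32 RPKM. The place of Hba-x was not the same in each library. It stood at 57.7 RPKM in Gli3R replicate 1, and in Gli3R replicate 2, at 9.60 RPKM, it was below Gfi1b (22.1 RPKM) and Gata1 (14.9 RPKM).

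In the edgeR test of all 6 libraries over 11913 genes, no member was called higher or lower with Gli3R. Of all tested genes 0.0252% were higher and 0.109% lower (quasi-likelihood test of edgeR, p under 0.05 after Benjamini-Hochberg adjustment), and 0 of the 10 members were called in either direction. With litter as a block those shares were 0.0755% and 0.151%, again with 0 members. At an unadjusted p under 0.05 the test held 2 members, Myb and Gfi1b, both higher with Gli3R, against 3.56% of all genes higher, 3.29% lower and 6.85% in either direction. With the litter block it held 3 members, Nfe2, Gfi1b and Myb, against 4.83% of genes higher and 8.73% in either direction. DESeq2 called the same pair higher, Myb at an adjusted p of 0.0158 and Gfi1b at 0.0496, and 0 lower; it called 0.361% of all genes higher and 0.428% lower, more than edgeR did. The median log2 fold change of the members was 0.25, that of all tested genes -0.01. The members showed 4 patterns: genes whose level followed the litter with little difference between genotypes, genes that were higher with Gli3R in each litter without passing the test, Kit, which was lower in each litter without passing, and globins that went different ways in different litters.

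**Figure D1:**
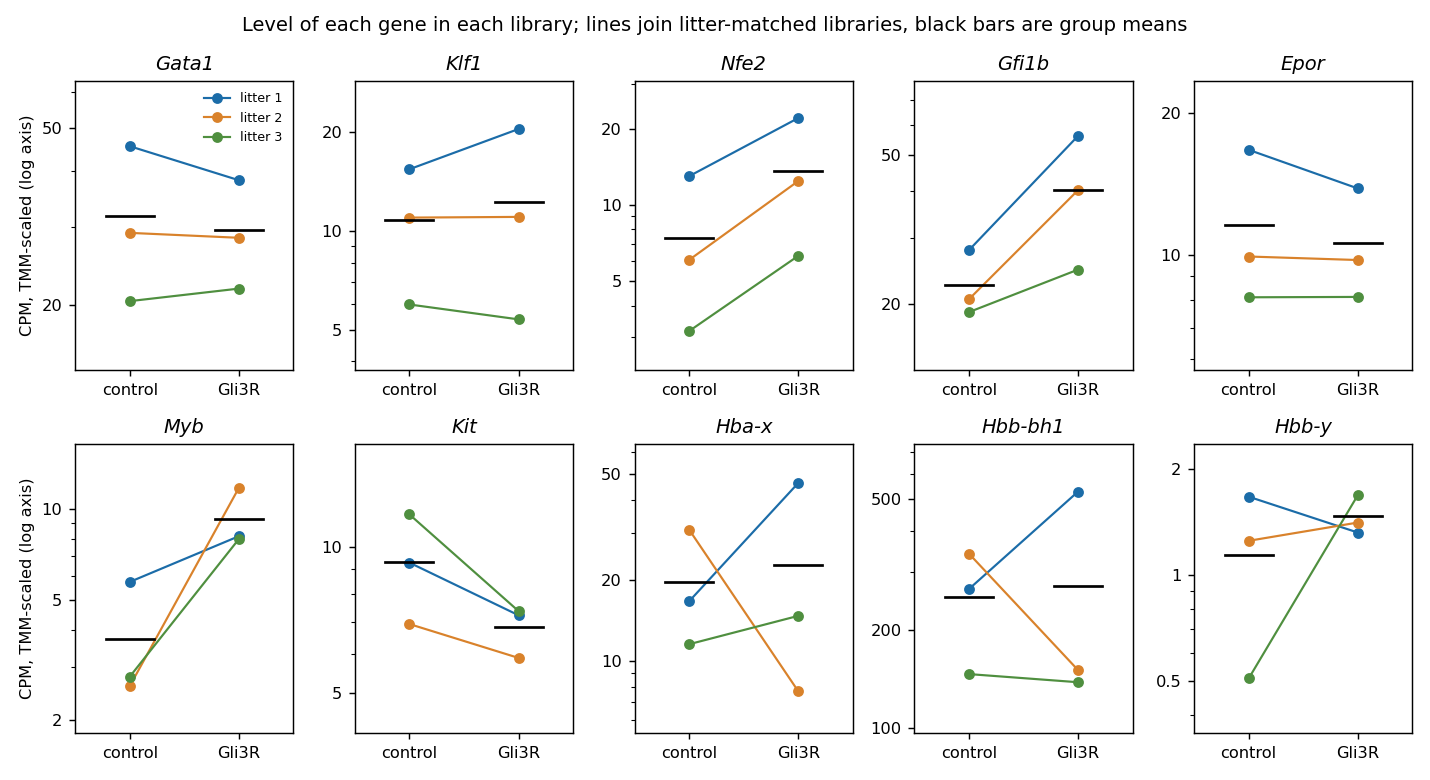
Level of each of the 10 genes in CPM on log axes, in control and Gli3R libraries; lines join libraries of a litter and black bars are group means. Gata1, Klf1 and Epor have nearly level lines stacked by litter, Nfe2, Gfi1b and Myb slope up in all 3 litters, and Hba-x and Hbb-bh1 cross.

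Gata1, the master factor of red cells, was measured at 45.5, 29.1 and 20.4 CPM in controls of litters 1, 2 and 3, and their Gli3R littermates gave 38.1, 28.3 and 21.8 CPM. Both genotypes were high in litter 1 and low in litter 3, and the groups overlapped over nearly their whole range. Its log2 fold change was -0.08 ± 0.28 (SE), with a 95% interval of -0.71 to 0.56 (edgeR quasi-likelihood test, adjusted p = 0.996). With litter as a block the interval narrowed to -0.36 to 0.21, or between 0.781 and 1.15 times the control level. Within litters the log2 ratio ran from -0.25 in litter 1 to 0.09 in litter 3.

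Epor, the erythropoietin receptor gene, behaved much like Gata1, at 16.7, 9.91 and 8.12 CPM in controls and 13.8, 9.74 and 8.13 CPM in Gli3R libraries. Litter 1 was again the highest in both groups, and in litters 2 and 3 the matched libraries were nearly equal. The log2 fold change was -0.08 ± 0.29, and -0.11 ± 0.16 with litter as a block (95% interval -0.49 to 0.27). Klf1, which encodes the factor that activates beta-like globin genes, stood at 15.4, 10.97 and 5.96 CPM in controls and at 20.4, 11.02 and 5.37 CPM in Gli3R libraries. Its order of litters was the same in both genotypes, and its range was wider with Gli3R, where litter 1 was 3.80 times litter 3, than in controls, at 2.58 times; that difference was not tested. The log2 fold change of Klf1 was 0.25 ± 0.44, and 0.12 ± 0.18 with the block (95% interval -0.29 to 0.53). Gata1 and Epor changed sign without control replicate 1 (0.26 and 0.25) and without Gli3R replicate 3 (0.10 and 0.07), as did Klf1 without Gli3R replicate 1 (-0.36) or control replicate 3 (-0.04), and none passed in these fits.

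Nfe2 encodes the erythroid and megakaryocytic subunit of a bZIP factor that binds globin control regions. It stood at 13.0, 6.06 and 3.17 CPM in control and 22.1, 12.4 and 6.29 CPM in Gli3R libraries. Each Gli3R library was above the control of its own litter, but the groups overlapped, since control replicate 1 exceeded Gli3R replicates 2 and 3. Nfe2, Gfi1b and Myb were higher in all 3 litters, as were 15% of all tested genes. The log2 ratios of Nfe2 within litters 1, 2 and 3 were close together, at 0.76, 1.04 and 0.99. Over all libraries the log2 fold change was 0.97 ± 0.51 (edgeR quasi-likelihood test, adjusted p = 0.818), and with litter as a block it was 0.91 ± 0.17 (adjusted p = 0.108), so Nfe2 passed neither test.

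Gfi1b, a repressor gene needed for red cell and platelet maturation, stood at 27.8, 20.6 and 19.0 CPM in controls and 56.1, 40.2 and 24.7 CPM in Gli3R libraries. The litters again kept their order, and the lowest Gli3R library lay just under the highest control. Within-litter log2 ratios were 1.01, 0.97 and 0.38. The log2 fold change was 0.87 ± 0.27, a 1.83-fold difference with a 95% interval of 1.204 to 2.78 (edgeR quasi-likelihood test, unadjusted p = 0.00938, adjusted p = 0.453), and 0.80 ± 0.15 with the block (adjusted p = 0.110). Without the low-count filter Gfi1b passed at an adjusted p of 0.0426. Markers of megakaryocytes and platelets, a lineage that also uses Gfi1b and Nfe2, summed to 1.65 to 2.78 CPM in control and 4.504 to 5.38 CPM in Gli3R libraries. Of those 8 markers 7 had any count, Ppbp was at 0, Pf4 had 4 control and 36 Gli3R counts and Itga2b had 35 and 64. Their part in the difference of Gfi1b and Nfe2 was not tested.

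Myb, a factor gene of proliferating definitive progenitors, was the only member whose groups did not overlap. It stood at 5.75, 2.60 and 2.79 CPM in controls and 8.15, 11.8 and 7.98 CPM in Gli3R libraries, so the lowest Gli3R library was above the highest control. Groups with Gli3R higher and no overlap were found for 5.62% of all tested genes, and with Gli3R lower for 6.33%, among them 0 members. The log2 fold change was 1.38 ± 0.33, a 2.61-fold difference with a 95% interval of 1.58 to 4.33 (edgeR quasi-likelihood test, unadjusted p = 0.00183, adjusted p = 0.234). Ratios within litters were uneven, at 0.50, 2.18 and 1.52 on the log2 scale, and the block did not tighten the estimate (1.39 ± 0.33, adjusted p = 0.205). Myb passed without the low-count filter (adjusted p = 0.0186; 0.262% of all genes were called higher) and when both libraries of litter 1 were left out (1.88 ± 0.31, adjusted p = 0.0453; 0.0419% of all genes), an alternative added after seeing the data. Markers of haemogenic and endothelial progenitors, all 12 with counts, summed to 265 to 293 CPM in control and 304 to 322 CPM in Gli3R libraries. They did not all move one way, though more were higher than lower. Tal1, Etv2, Fli1 and Sox7 were higher in every Gli3R library than in any control, and only Lmo2 was lower in every one. Cdh5, Emcn and Tie1 had at most 23 counts in a group. The 11 mesoderm markers summed to 466 to 518 CPM in control and 521 to 692 CPM in Gli3R libraries, with Msx1 and Bmp4 higher in every Gli3R library and Foxf1 lower. The part of these markers in the Myb difference was not tested.

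Kit, the receptor gene for stem cell factor, went the other way, at 9.28, 6.93 and 11.7 CPM in controls and 7.22, 5.90 and 7.36 CPM in Gli3R libraries. Each Gli3R library was below its littermate control, as for 15.3% of all tested genes, and the groups overlapped in part. The log2 fold change was -0.43 ± 0.24 (edgeR quasi-likelihood test, adjusted p = 0.850; 95% interval -0.96 to 0.09). Kit also marks germ cells, whose 7 markers, Kit included, summed to 15.5 to 19.5 CPM in control and 12.6 to 19.6 CPM in Gli3R libraries.

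**Figure D2:**
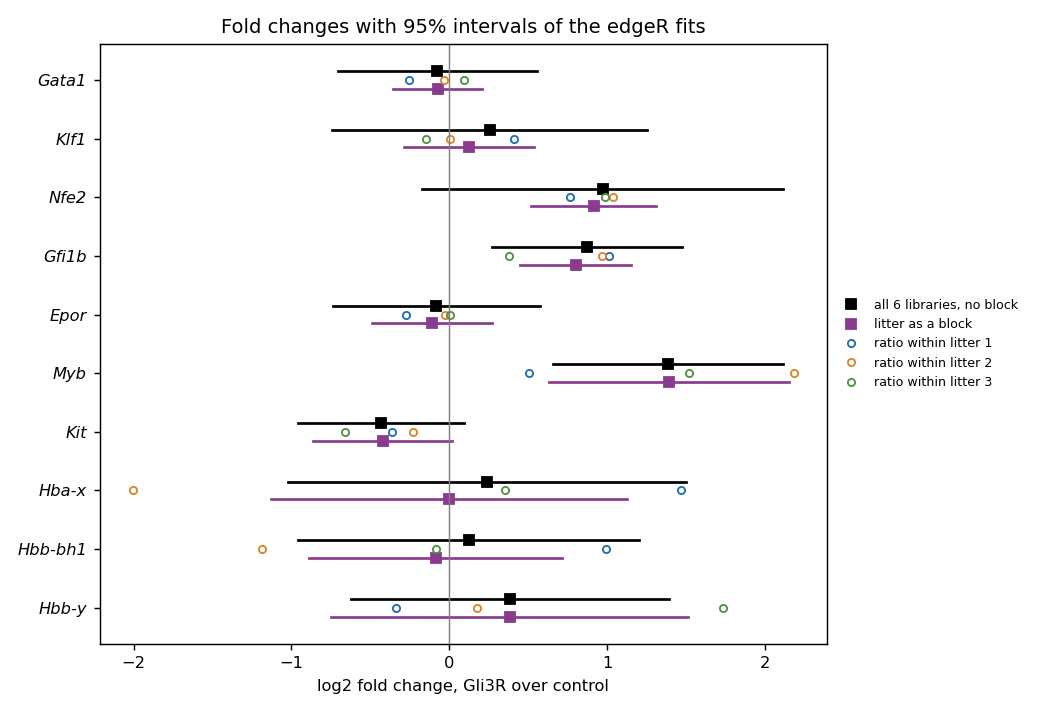
Log2 fold change of each gene, Gli3R over control, with 95% intervals from the edgeR fits without (black) and with (purple) litter as a block, and open circles for the ratio within each litter. The block shortens the intervals of Gata1, Klf1, Nfe2, Gfi1b and Epor, and also those of Kit, Hba-x and Hbb-bh1. Those of Myb and Hbb-y do not shorten. The 3 litters of Hba-x span -2.01 to 1.47.

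Unlike Gata1, Klf1, Nfe2, Gfi1b and Epor, none of the 3 globins kept the order of litters 1, 2 and 3 in both genotypes. Hbb-bh1, the main embryonic beta-like chain at this stage, stood at 266, 341 and 146 CPM in controls and 529, 150 and 138 CPM in Gli3R libraries. It was highest in litter 2 among controls and in litter 1 among Gli3R libraries. Within litters it was higher with Gli3R in litter 1 (log2 ratio 0.99), lower in litter 2 (-1.18) and close to equal in litter 3 (-0.08). Hba-x, the zeta chain gene, was likewise highest in litter 2 among controls and in litter 1 with Gli3R, at 16.7, 30.9 and 11.5 CPM in controls and 46.2, 7.69 and 14.7 CPM in Gli3R libraries. Its log2 ratios within litters were 1.47, -2.01 and 0.35. The log2 fold changes of 0.12 ± 0.48 for Hbb-bh1 and 0.24 ± 0.56 for Hba-x were well inside that spread (edgeR quasi-likelihood test, adjusted p = 0.996 for both), and their 95% intervals allow from 0.516 to 2.30 times and from 0.491 to 2.83 times the control level. Their sign depended on single libraries: without Gli3R replicate 1 they were -0.80 ± 0.29 and -0.85 ± 0.42, without control replicate 3 they were -0.15 and -0.04, and with the litter block -0.09 and -8.37e-04, with 0 calls of either in these fits.

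Hbb-y was barely transcribed, with 26 control and 39 Gli3R counts in all. Its levels were 1.67, 1.25 and 0.51 CPM in controls and 1.32, 1.41 and 1.69 CPM in Gli3R libraries. Exact Poisson intervals, which cover counting error only, ran from 0.138 to 1.30 CPM in the lowest library and 0.843 to 3.02 CPM in the highest, and the intervals of all 6 libraries overlapped. Per length, Hbb-bh1 exceeded Hbb-y by 84.5 to 413 times and Hba-x by 12.2 to 25.6 times over the 6 libraries. No stretch of 50 bases of any member's longest GENCODE M21 transcript occurred in a GENCODE M21 transcript of another gene. Near-copies and copies outside annotated transcripts were not searched.

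Of 10 other haemoglobin chain and chaperone genes listed beside the members, 7 were in the table and 4 were tested, with 0 called. The adult-type alpha genes Hba-a1 and Hba-a2 shared 67.5% and 86.9% of their 50-base stretches, so their counts are given as a sum, of 59.2, 64.0 and 28.7 CPM in controls and 327, 47.8 and 52.5 CPM in Gli3R libraries. Gli3R replicate 1 was far above the other 5 libraries. The adult-type beta genes Hbb-b1 and Hbb-bs, also near-copies whose reads are uncertain, summed to 3.15, 19.8 and 10.0 CPM in controls and 76.9, 10.9 and 5.52 CPM in Gli3R libraries. The same library was again the highest, so that Hba-x, Hbb-bh1 and Hbb-y together made up 58.7% of globin counts there, 72.7% and 73.1% in the other Gli3R libraries and 80.3% to 82.0% in controls. How reads shared by near-copies were counted is not given in the sources used here. If each such read was counted for both copies, the adult-type sums are up to 2 times too high. With the summed counts of each pair divided by 2, the embryonic share would be 73.9% in Gli3R replicate 1, 84.2% and 84.5% in the other Gli3R libraries and 89.0% to 90.1% in controls. The Hba-a1 log2 fold change of 1.54 ± 0.67 went to 0.00 ± 0.30 without Gli3R replicate 1. Alas2, the erythroid enzyme of the first step of haem synthesis, showed the same peak, at 9.46, 9.33 and 6.98 CPM in controls and 22.8, 7.43 and 7.98 CPM in Gli3R libraries.

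**Figure D3:**
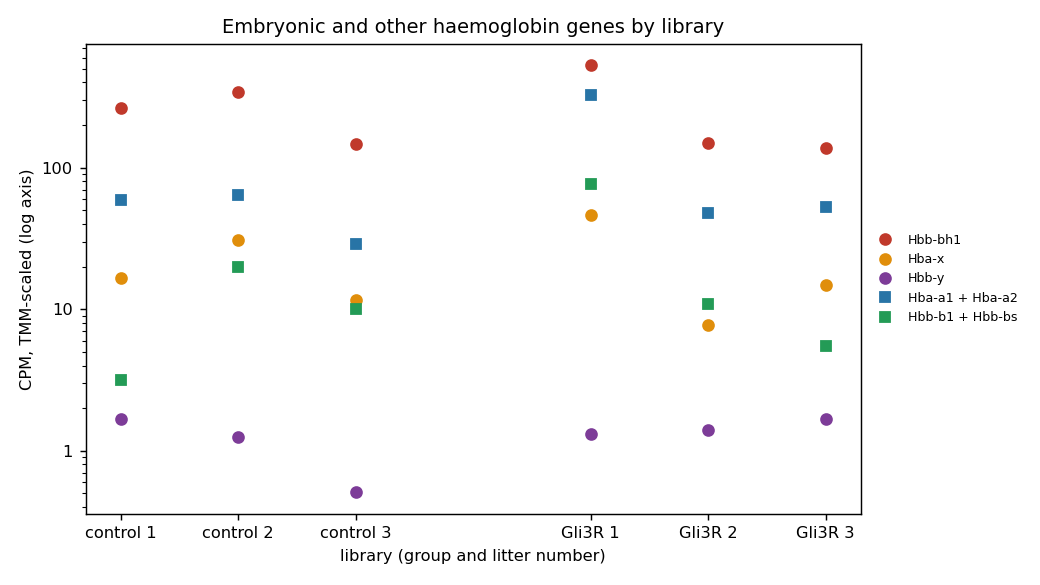
CPM on a log axis of the embryonic globin genes (circles) and of the summed adult-type alpha and beta genes (squares) in the 6 libraries. Hbb-bh1 is the highest and Hbb-y the lowest in every library, and Gli3R replicate 1 stands out for the adult-type genes, at 327 and 76.9 CPM.

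Litter held most of the spread of Gata1, Klf1, Epor and Nfe2, though 0 members passed the test of litter after adjustment. Litter accounted for 96.3%, 96.6% and 95.8% of the sum of squares of log2 CPM over the 6 libraries for Gata1, Klf1 and Epor, and genotype for 0.65%, 0.43% and 1.63%. The median litter share of all tested genes was 42.3%, and 1.57% of genes reached a litter share of 95%. For Nfe2 the shares were 73.8% for litter and 25.8% for genotype, and for Gfi1b 41.7% and 51.3%. Myb was the reverse, with 7.20% for litter and 74.8% for genotype, and 13.6% of all genes had a genotype share of at least 50%, while the rest, not shared by litter or genotype, held 70.4% for Hba-x and 37.5% for Hbb-bh1.

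**Figure D4:**
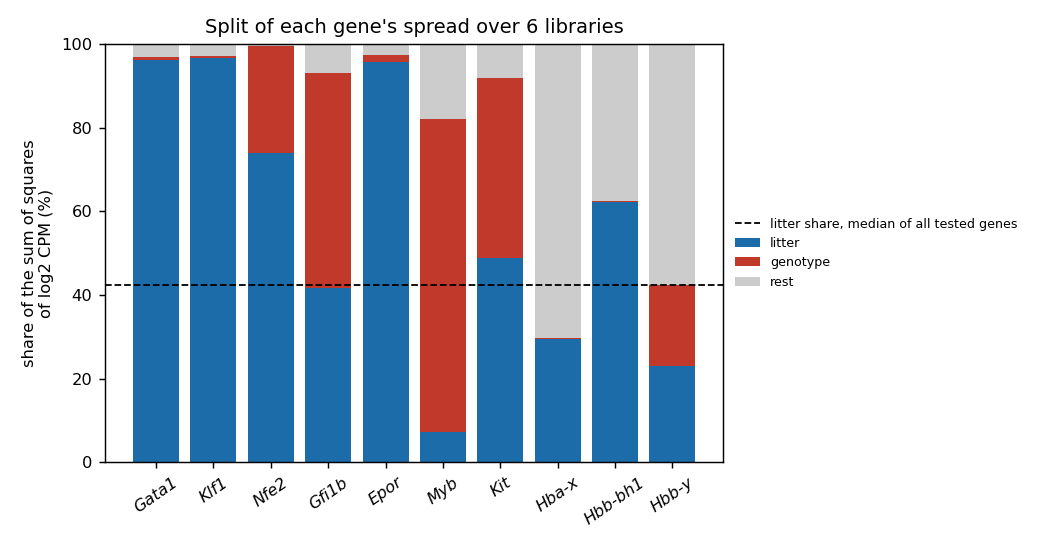
Share of each gene's sum of squares of log2 CPM over the 6 libraries held by litter, genotype and the rest, in percent; the dashed line is the median litter share of all tested genes, 42.3%. Litter fills the bars of Gata1, Klf1 and Epor, genotype is the largest part for Myb and Gfi1b, and the rest for Hba-x and Hbb-y.

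In a test of litter over all genes with genotype in the model, 0.00839% of genes passed (quasi-likelihood test of edgeR, p under 0.05 after Benjamini-Hochberg adjustment), and 0 members. At an unadjusted p under 0.05 the same test held 6 of the 10 members (Gata1, Klf1, Nfe2, Gfi1b, Epor and Hbb-bh1) against 8.68% of all genes, with Nfe2 the lowest at 9.31e-05 (adjusted p = 0.132). Litter 1 was highest and litter 3 lowest in both genotypes for Gata1, Klf1, Nfe2, Gfi1b and Epor, an order found for 5.4% of tested genes, with litter 1 highest in both for 15%, and chosen for counting after the values were seen. The call depended on the fit: without the low-count filter 5 members passed, against 1.6% of all genes, and 6 passed without control replicate 1, against 2.8%, and 4 without Gli3R replicate 1, against 5.55%. In the fits without 1 library of litter 1, that litter was a single library. Calls in those fits cannot tell litter apart from that library's own level. Without control replicate 1, Hba-x and Hbb-bh1 in litter 1 rested on Gli3R replicate 1 alone. They stood there at 46.2 and 529 CPM, against 16.7 and 266 CPM in the omitted control. When both libraries of litter 1 were left out, 0 members passed, against 0.277% of genes. In that fit 6 of the 10 stayed at an unadjusted p under 0.05, against 7.79% of genes.

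Of 17 tested partners and other erythroid regulators, 1 rose and 0 fell over all genes tested, and at an unadjusted p under 0.05 there were 4 higher and 3 lower, against 3.56% and 3.29% of all genes. The list was drawn up with earlier results of these data known, so this count is a description. The gene that rose was Tal2, which encodes a relative of Tal1, at 0.93, 0.58 and 0.89 CPM in controls and 3.88, 3.72 and 4.76 CPM in Gli3R libraries (edgeR quasi-likelihood test, adjusted p = 0.0394, and 0.0502 with litter as a block). The other 3 at the higher end did not pass after adjustment: Tal1, a factor gene needed for all blood lineages, stood at a log2 fold change of 0.96 ± 0.15 (edgeR quasi-likelihood test, adjusted p = 0.0506), Gfi1, the close relative of Gfi1b, at 2.64 ± 0.47 with 7 control and 53 Gli3R counts (adjusted p = 0.100), and Runx1, the definitive blood factor gene, at 0.83 ± 0.27 (adjusted p = 0.478). The 3 at the lower end did not pass either, with the Gata1-complex adaptor gene Lmo2 at -0.92 ± 0.18 (adjusted p = 0.160), the corepressor gene Cbfa2t3 at -0.90 ± 0.30 and Mafk, which encodes a small Maf partner of Nfe2, at -0.95 ± 0.38. The histone demethylase gene Kdm1a and the E-protein gene Tcf3, both abundant, stood at -0.02 ± 0.10 and -0.03 ± 0.11. The list's median of 0.03 lies between members that went opposite ways.

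Of 9 tested genes of haem synthesis 0 passed, among them Alad and Urod, enzyme genes of the pathway, at log2 fold changes of -0.15 ± 0.11 and 0.03 ± 0.09. None of 6 tested iron genes passed, among them the ferritin genes Ftl1 (0.02 ± 0.07) and Fth1 (0.25 ± 0.07, adjusted p = 0.439) and the transferrin receptor gene Tfrc (-0.25 ± 0.11). Only 4 of 13 red cell membrane genes had enough counts to test, and 0 passed. The anion exchanger gene Slc4a1 had no count in any library, which allows at most 0.233 to 0.557 CPM, and the Rh-associated Rhag had 1 control and 4 Gli3R counts. Of 9 tested genes of Epor and Kit signalling 0 passed, with the Kit ligand gene Kitl at 0.03 ± 0.14, Bcl2l1 at -0.19 ± 0.17 and Lyn at 0.31 ± 0.20. At an unadjusted p under 0.05 in the edgeR test, haem synthesis held 0 higher and 1 lower, and iron genes 1 and 0. Membrane genes held 0 and 0, and the signalling genes 2 and 1, against 3.56% and 3.29% of all genes. The list medians ran from 0.03 to 0.31 apart from the adult-type globins, whose median of 1.497 rested on Gli3R replicate 1.

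Among 7627 other genes of at least 10 CPM, those most like the mean standardised level of the 3 embryonic globins over the 6 libraries were C1d, Pcbp1, 0610010F05Rik, Plekha5 and 9030025P20Rik, with Pearson r of 0.961 to 0.974. The median absolute r of all candidates was 0.354, and with 6 libraries that share depth and litter such values are a description only. None of the 5 is a globin or a red cell gene of the lists above, and C1d varied only between 163 and 186 CPM, far less than Hba-x and Hbb-bh1. Hbb-y, with 4 to 17 counts per library, weighed as much in that mean as Hba-x and Hbb-bh1. Its own r with those genes was only 0.17 and 0.22.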

How the data were processed

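Raw counts, as the authors deposited them, cover 24975 Entrez gene IDs in 6 libraries. Tools listed without roles in the submitters' processing notes are TopHat2 2.0.14, featureCounts, Subread 1.4.6, FastQC and edgeR, with the build mm9. For annotation, strand and multiply mapped reads, settings were not given in the sources used here. By the labels' protocols, 1000 cells per library were sorted into lysis buffer and amplified with a SMARTer and Nextera XT workflow. Counts were analysed in R 4.3.3 with edgeR 4.0.16: filterByExpr (minimum count 10), TMM scaling, and a two-sided quasi-likelihood test of genotype, Benjamini-Hochberg adjusted over 11913 genes at 0.05. Litter was tested in a fit with genotype and litter. Alternatives were litter as a block, other scalings and filters, DESeq2 1.42.0 and leaving out each library. The scripts were tested on simulated data.

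CPM are TMM-scaled, with SD over 3 libraries. RPKM use the union of GENCODE M21 basic exons per Entrez gene. The limit for a count of 0 is 3 counts. Variance shares and the ordering of genes by likeness use log2 CPM with a prior count of 2. Replicate numbers pair the libraries because the labels and the table give the litter; after subtracting group means, littermate libraries correlated at 0.168, 0.187 and 0.0755 and libraries of different litters at -0.269 to 0.162. The genotype p-values of fits without a block reflect variation among pooled litters. Those with the block, and those of the litter test, rest on the variation left after litter and genotype are fitted. The members, gene lists and tests were chosen with earlier results of these data known. Named genes are the members, list genes that passed (otherwise the 3 most abundant of a list), and the 5 genes most like the globins; Kdm1a, Lmo2, Tcf3, Tal1, Gfi1, Runx1, Cbfa2t3, Mafk, Etv2, Cdh5, Emcn, Tie1, Msx1, Bmp4, Foxf1, Alas2, Pf4, Itga2b, Slc4a1 and Rhag were added after their values were seen, and some list genes are not reported here. No protein sequence was used here.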

Additional observations from a re-analysis of the deposited data

How the results depend on the processing

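With litter as a replicate block, 9 genes were higher and 18 lower against 3 and 13 without it, and 0 members were called either way; Hba-x and Hbb-bh1 changed sign, to -8.37e-04 and -0.0875. DESeq2's size factors kept every count. Library size alone gave 5 higher, and a filter of at least 5 CPM in 3 libraries gave 1 higher. Without the low-count filter 49 genes were higher and 59 lower, and with the DESeq2 test 43 and 51, each with 2 members higher (Myb and Gfi1b). Leaving out single libraries gave 0 to 2 higher and 0 to 16 lower genes and 0 members in every fit. In those fits log2 fold changes ran from -0.32 to 0.26 for Gata1, -0.34 to 0.25 for Epor, -0.36 to 0.59 for Klf1, -0.85 to 0.75 for Hba-x and -0.80 to 0.44 for Hbb-bh1, while Nfe2 (0.41 to 1.57), Gfi1b (0.55 to 1.12), Myb (1.17 to 1.79), Hbb-y (0.03 to 0.66) and Kit (-0.62 to -0.22) kept their sign. Without both libraries of litter 1, added after seeing the data, 5 genes were higher and 22 lower and 1 member, Myb, was higher; Gata1 stood at 0.0145, Klf1 at -0.0488, Hba-x at -0.96 and Hbb-bh1 at -0.76. The test of litters called 1 gene; it called 6 with library size alone, 299 without the filter, 0 with the 5 CPM filter, 33 without litter 1, and 339 to 672 without 1 library of litter 1, a fit added after seeing the data. It called 0 members, but 5 without the filter and 4 to 6 without 1 library of litter 1. The cause of these shifts was not tested. Without 1 library of litter 1 that litter was a single library, so those calls cannot tell litter from library. Depth limits Hbb-y, with 4 to 17 counts per library, and the red cell membrane genes.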
